A study of Mus musculus with 18 samples.

Results

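Metalloproteinases and their inhibitors were followed in embryonic mouse palate: the matrix metalloproteinases (Mmp), the membrane proteins of the ADAM family (Adam), the secreted ADAMTS proteinases (Adamts), the ADAMTS-like proteins (Adamtsl) and the tissue inhibitors of metalloproteinases (Timp). Members were all genes whose symbol starts with one of these 5 names and a number, and that had a probe set annotated to 1 symbol. The rule found 70 of 18193 genes, measured by 124 probe sets, and comprised 28 Adam, 15 Adamts, 5 Adamtsl, 18 Mmp and 4 Timp genes. Each gene was represented by its brightest probe set over all arrays. Of the members, 38 had 1 probe set and 32 had several.

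Total RNA was taken from palatal tissue of C57BL/6J embryos at embryonic day 15.5, and 18 arrays fell into 3 groups of 6. Mutant posterior palate came from embryos labelled K14-Cre;Tgfbr2 fl/fl, and control posterior palate from embryos labelled Tgfbr2 fl/fl. Control anterior palate was likewise labelled Tgfbr2 fl/fl, so every group carried floxed alleles of Tgfbr2, which encodes a receptor for TGF-beta, and Cre was named in the mutants alone. The comparison addresses what happens in the palate when epithelial cells lose the receptor. The keratin 14 promoter drives Cre in epithelium, so the deletion concerns epithelial cells within a sample of whole tissue. Mutants and controls were stated to be from separate litters, so genotype and litter cannot be told apart, and sex was not determined. The series description counts 5 samples in a group, whereas 6 are labelled. Pooling of embryos is not described in the labels, and p-values therefore measure only the spread between these samples, which may be technical.

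The MMPs, ADAMs and ADAMTS enzymes share a zinc-dependent proteinase fold, and the TIMPs bind to it. MMPs cut collagens and other matrix proteins, many ADAMs release growth factors and receptors from the cell surface, ADAMTS enzymes cut proteoglycans or process procollagen, and TIMPs occupy the active site and block the enzymes. TGF-beta is a long-known regulator of matrix, MMP and TIMP genes in connective tissue. In the fusing palate, matrix breakdown accompanies the removal of the midline epithelium, and MMP13 is known from the medial edge of the mouse palatal shelf, as well as from hypertrophic cartilage and bone.

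Values are log2 intensities per probe set, and differences were tested with limma, adjusted by the Benjamini-Hochberg method over all 18193 genes and called at an adjusted p under 0.05. Mutant arrays 1 to 3 had means over all probe sets of 6.35 to 6.37 and medians of 5.87 to 5.90, whereas the means of the other 15 arrays were 6.26 to 6.28 and their medians 5.74 to 5.80. Tgfbr2 itself read 10.63, 11.05 and 11.39 (lowest, median and highest of 6 arrays) in mutant posterior palate and 10.25, 10.45 and 10.73 in control posterior palate, a difference of 0.55 ± 0.13 (SE; limma adjusted p = 0.00879). It was not lower in mutants. Deletion is limited to epithelial cells, and where these probes lie with respect to the deleted exons was not analysed, so this gene does not check the genotype labels, and groups are named as labelled throughout. Within each genotype, arrays 1 to 3 and arrays 4 to 6 stood apart in the hybridisation spike-ins, which are bacterial transcripts added to every array. Their mean was 11.71 to 12.21 against 11.06 to 11.18 in mutant arrays, 10.93 to 10.96 against 11.26 to 11.33 in control posterior arrays, and 10.94 to 11.02 against 11.33 to 11.51 in control anterior arrays. The labels do not name these sets. Labelling spike-ins averaged 7.90 ± 0.55 in mutant posterior and 10.28 ± 0.75 in control posterior arrays (SD, n = 6 each), without overlap. Genotype therefore cannot be told apart from whatever in sample handling set these spike-ins apart. Epithelial and palatal mesenchyme markers, fitting the labelled tissue, had mean levels above the array median in every group, at 9.67 to 12.13 and 8.50 to 9.92 on mutant posterior arrays, and of 11.50 to 12.04 and 9.18 to 9.51 on control posterior arrays.

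At this stage 34 of the 70 members read above the median of all probe sets on every one of the 18 arrays, 22 read below it on every array, and 14 lay on both sides. Over all genes, 60.6% were above the median on every array. Of the ADAMTS genes, 14 of 15 were above it throughout, including all 7 that cut aggrecan or versican, the large proteoglycans of cartilage and of loose embryonic matrix. All 4 membrane-type MMPs and both gelatinases were above it too. The 16 ADAMs outside the sheddase and adhesive groups, many of them known from sperm and testis, gave the opposite picture, with 13 below the median on every array and none above it on all. The 5 members with the highest mean reading were Mmp14, Adam10, Timp2, Mmp2 and Timp1. Mmp14 is the membrane-anchored collagenase that, together with Timp2, activates the Mmp2 zymogen. Without detection calls, a reading well below the median may be background.

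Comparing mutant with control posterior palate, 13 of 70 members (18.6%) were called, 10 higher and 3 lower. Over all genes 13.5% were called, 7.73% higher and 5.73% lower. This split depended on scaling: 57.5% of all called genes were higher in mutants as deposited, 38.6% with each array centred on its median and 44.0% with a further quantile normalization, and the members then gave 8 higher and 3 lower under both. The median member differed by 0.15 on the log2 scale, against 0.04 over all genes, and 52 of 70 members had a positive difference (74.3%, against 58.3% of all genes). The part of the higher overall level of mutant arrays 1 to 3 in this sign count was not tested. For 4 members, Adam19, Adamts1, Adamtsl4 and Mmp19, every mutant value lay above every control value, and for none was the reverse seen. Over all genes the groups were apart for 6.55%, 3.52% with mutants higher and 3.03% with mutants lower. Mmp19 was singled out after its values were seen, and its difference of 0.24 was not called (limma adjusted p = 0.0724). In whole tissue, fewer cells of a type and less RNA per cell cannot be told apart.

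The 13 calls depended on how the array sets were handled. With the 4 sets of arrays as a random block, none of the 13 was called (limma adjusted p from 0.0600 to 0.223), nor with control arrays 1 to 3 alone as controls (0.160 to 0.440). With control arrays 4 to 6 alone, 8 of the 13 were called. Of the 13, 6 were called with mutant arrays 1 to 3 alone and 9 with mutant arrays 4 to 6 alone. All 13 differences kept their sign in each of these fits. With the mean of each gene's probe sets, 10 of the 13 were called, and Adam23, Adamts18 and Mmp16 were lost. Leaving out any 1 of the 18 arrays kept the calls of Adam19, Adamts1, Adamts15, Adamtsl4, Mmp12, Mmp16 and Timp3 (highest limma adjusted p 0.0398). The other 6 calls were lost in some of these 18 fits. Adamts12 was lost in 3 (without control posterior array 4, 5 or 6), Adam22 in 5 (without control posterior 4, 5 or 6, or mutant 1 or 6) and Adam23 in 7 (without control posterior 2, 3, 4, 5 or 6, or mutant 3 or 4). Adamts18 was lost in 11, and Mmp11 and Adam15 in 13 each (highest limma adjusted p 0.103, 0.0927 and 0.125).

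**Figure D1:**
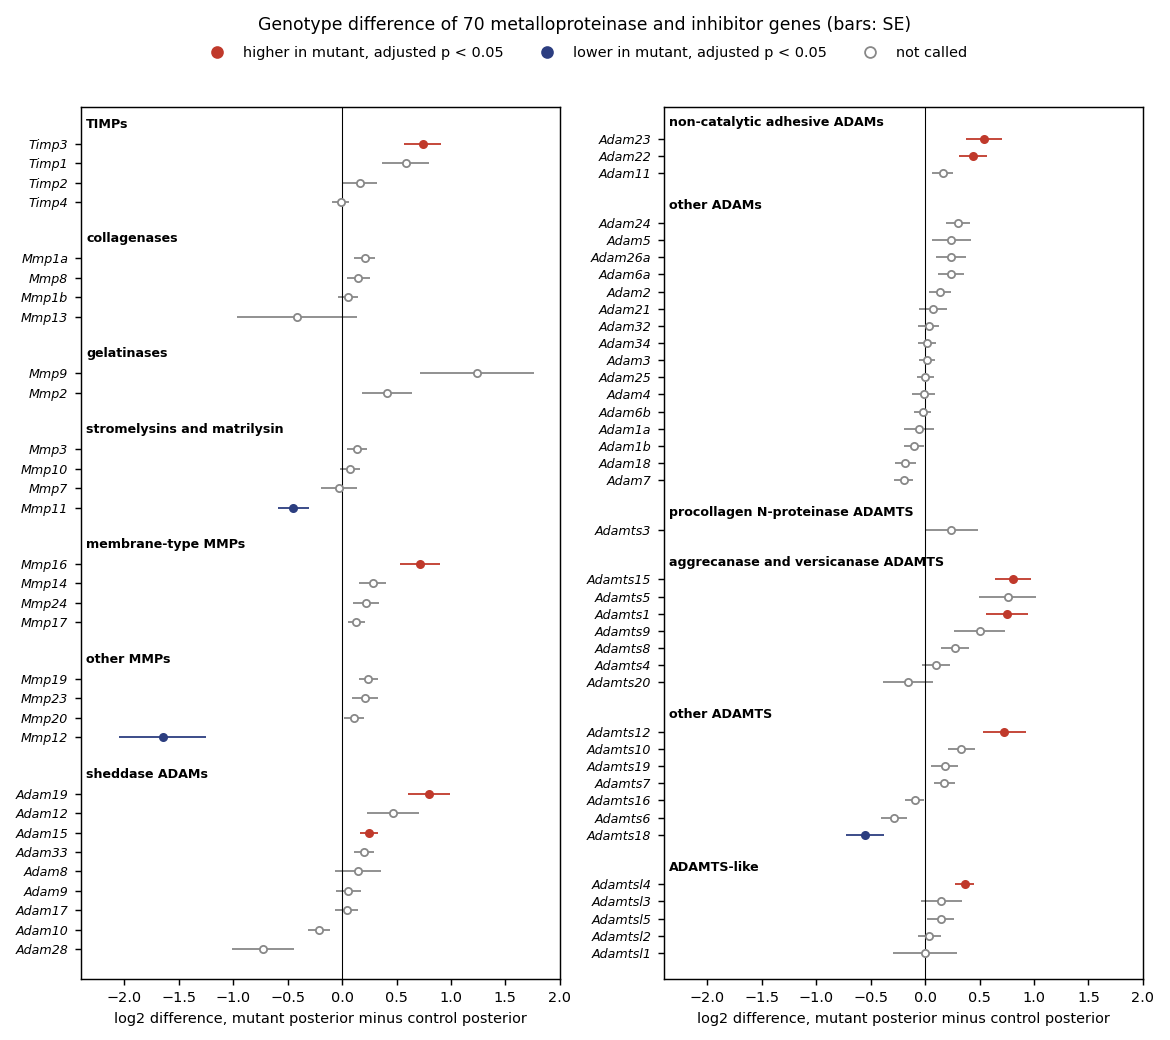
Difference in log2 expression, mutant posterior minus control posterior, for all 70 members grouped by role; points are limma estimates from 6 arrays per group and bars are standard errors. Red marks the 10 genes called higher in mutants, blue the 3 called lower, and open points the 57 not called; Mmp9 and Mmp13 have the widest bars.

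Among the inhibitors, Timp3, the TIMP that is bound to the matrix and that also blocks ADAM and ADAMTS enzymes, was called higher in mutants. It read 9.39, 10.0002 and 10.43 (lowest, median and highest of 6 arrays) in mutant posterior palate, against 8.78, 9.35 and 9.51 in control posterior palate. The groups overlapped only through mutant array 2, the lowest mutant. The same array was the only mutant to reach into the control range for Mmp12, Mmp16, Adamts15 and Adamts12. It had the lowest endothelial marker mean of all 18 arrays (7.09), the lowest bone, tendon and mast cell means of the mutants (9.85, 8.61 and 6.63) and the highest epithelial mean of the mutants (12.13), and the part of these cells in its readings was not tested. The difference was 0.74 ± 0.17 (SE), or 1.67-fold (limma adjusted p = 0.00864). Its other 3 probe sets gave 0.91, 0.44 and 1.05, with limma adjusted p of 0.00112, 0.133 and 8.67e-05 over all probe sets with 1 symbol. Timp1, a soluble inhibitor induced by many growth factors, read 9.17, 10.12 and 11.03 in mutants and 9.36, 9.56 and 9.83 in controls. Again mutant array 2 was the lowest, below every control, while the other 5 mutant arrays lay above all 6 controls. The difference of 0.58 ± 0.22 was not called (limma adjusted p = 0.0807), and was 0.78 without mutant array 2 (0.00698). Timp2 and Timp4 were not called, with differences of 0.16 ± 0.16 and -0.01 ± 0.08 (limma adjusted p = 0.557 and 0.934). The brightest Timp2 probe set stood beside another with 0.32 and an adjusted p of 0.0288 over all probe sets.

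**Figure D2:**
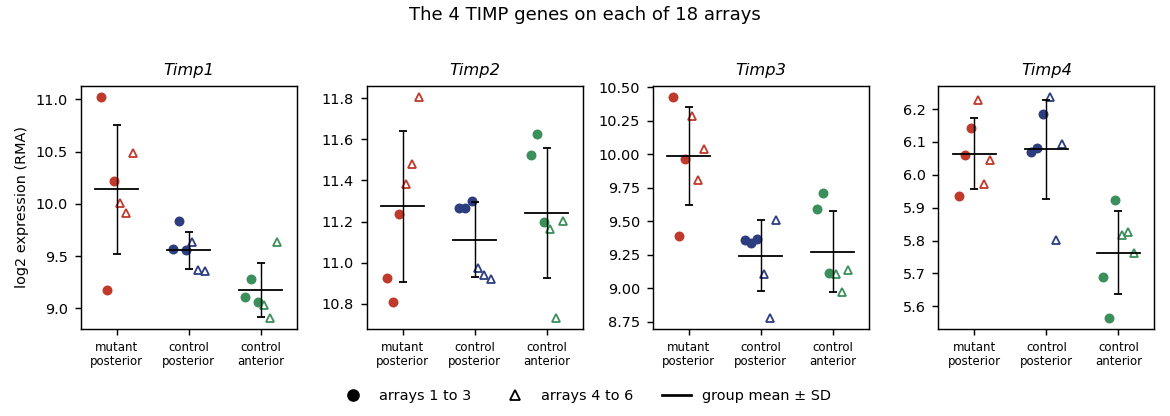
Log2 expression of the 4 TIMP genes on each array in mutant posterior, control posterior and control anterior palate (6 arrays each); circles are arrays 1 to 3, triangles arrays 4 to 6, and lines the group mean ± SD. Timp3 is high in the mutants apart from array 2, and Timp4 is low in control anterior palate.

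Of the collagenases, gelatinases and stromelysins, Mmp11 alone was called. Mmp11, stromelysin-3, which furin activates inside the cell, read 7.71, 8.51 and 8.73 in mutant posterior palate and 8.63, 8.84 and 9.06 in control posterior palate. Mutant array 1 was the lowest by a wide margin, and mutant array 6 alone reached into the control range. The difference was -0.45 ± 0.14 (limma adjusted p = 0.0452). Mmp1a, Mmp1b, Mmp8, Mmp3 and Mmp10 were not called and read below the array median on all 18 arrays, and Mmp7 on 12 of them.

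Mmp12, macrophage elastase, had the largest called change of any member. Mutant posterior arrays read 4.42, 4.97 and 6.76 (lowest, median and highest), against 5.51, 6.94 and 7.57 on control posterior arrays. Of the 6 mutant values 5 were below every control value, and mutant array 2 was the exception. The difference was -1.65 ± 0.40 (limma adjusted p = 0.0121). Since 5 of the 6 mutant readings lay below the array median and may be background, no fold is given. The difference was -1.97 without mutant array 2 (0.00185). Of 7 macrophage marker genes Csf1r was higher (0.53, limma adjusted p = 0.0489) and C1qb lower (-0.68, 0.00134), and their mean level was 8.99 to 9.71 on mutant arrays and 8.90 to 9.32 on control posterior arrays. Their part in the Mmp12 difference was not tested.

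Mmp13, collagenase-3, lies next to Mmp12 on chromosome 9 and was more variable. It read 6.997, 7.91 and 11.09 in mutant posterior palate and 7.46, 8.94 and 9.71 in control posterior palate. Mutant array 1 exceeded every control, mutant array 3 was below every control, and the other 4 mutant arrays lay within the control range. The difference of -0.42 ± 0.55 was not called (limma adjusted p = 0.667), nor was that of -0.95 without mutant array 1 (0.138). Mmp9, gelatinase B, which osteoclasts and leukocytes secrete, read 6.96, 7.55 and 11.29 in mutants and 6.64, 6.86 and 7.01 in controls. All 6 mutant arrays were above the control mean, with array 1 far above the rest. The difference of 1.24 ± 0.52 was not called (limma adjusted p = 0.128), and was 0.60 without that array (0.104). Mutant array 1 was also the array with the highest osteoclast marker level, a mean of 8.01 over 7 genes against 5.60 to 5.79 on the other mutant arrays and 5.40 to 5.65 on control posterior arrays. Its mast cell marker level was 9.31 and its epithelial marker level 9.67, the highest and the lowest of the 18 arrays. The part of these cells in the readings was not tested. Mmp2, gelatinase A, differed by 0.41 ± 0.23 (limma adjusted p = 0.261).

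**Figure D3:**
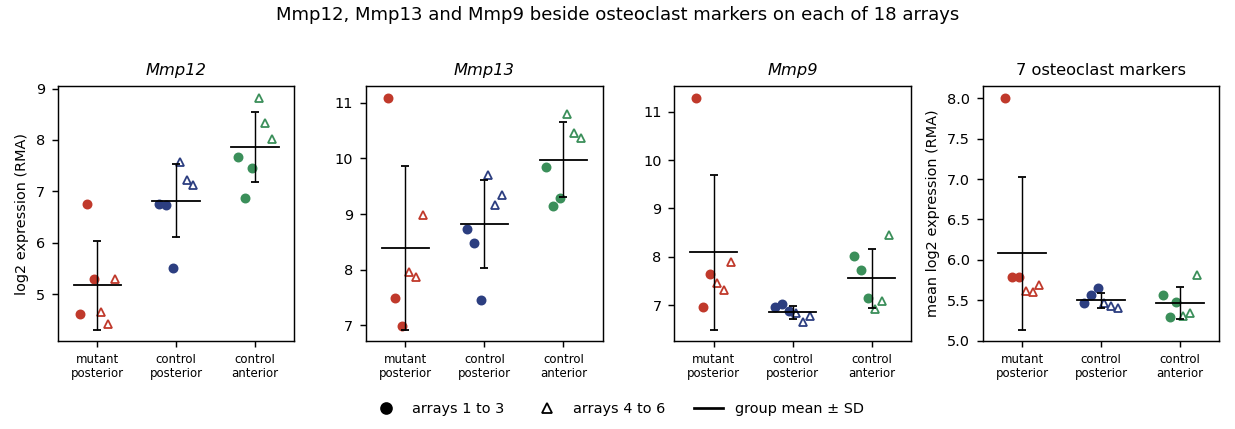
Log2 expression of Mmp12, Mmp13 and Mmp9 and the mean log2 level of 7 osteoclast marker genes on each array, with mutant posterior, control posterior and control anterior palate from left to right; circles are arrays 1 to 3, triangles arrays 4 to 6, lines the group mean ± SD. One mutant array is high for Mmp13 (11.09), Mmp9 (11.29) and the osteoclast markers (8.01), and Mmp12 is lower on 5 of the 6 mutant arrays than on any control array.

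Among the membrane-type MMPs, Mmp16 was called higher. It anchors in the cell membrane, where it can activate Mmp2. Mutant posterior arrays read 8.28, 8.81 and 9.60, and control posterior arrays 7.98, 8.14 and 8.32, so that only mutant array 2 reached into the control range. The difference was 0.72 ± 0.18 (limma adjusted p = 0.0156). Of its other 3 probe sets 1 gave a matching 0.72 (0.0191 over all probe sets), and the remaining pair gave 0.46 and 0.21 and were not called. Mmp14 differed by 0.28 ± 0.12 and was not called (limma adjusted p = 0.141).

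Of the 7 ADAMTS genes that cut aggrecan or versican, 2 were called, both higher in mutants (28.6%, against 7.73% of all genes called higher). Their median difference was 0.50, against 0.04 over all genes, and 6 of 7 were positive. Adamts15 read 7.55, 8.35 and 8.79 in mutant posterior palate and 7.30, 7.52 and 7.56 in control posterior palate, with 5 mutant arrays above all controls and mutant array 2 inside the control range. The difference of 0.81 ± 0.16, 1.75-fold, had the smallest adjusted p of all members (limma, 0.00408). Adamts1 read 8.03, 8.60 and 8.89 in mutants and 7.62, 7.83 and 8.01 in controls. These groups did not overlap, and the difference was 0.75 ± 0.19 (limma adjusted p = 0.0154). Adamts5, its direct neighbour on chromosome 16 and the main aggrecanase of mouse cartilage, had a like difference of 0.76 ± 0.26 with a wider spread. It read 7.53, 8.46 and 9.30 in mutants and 7.19, 7.64 and 7.86 in controls, and was not called (limma adjusted p = 0.0622). Mutant arrays 5 and 6 lay within the control range and the other 4 above it. Mutant arrays 1 to 3 alone gave 1.26 (0.00116) and mutant arrays 4 to 6 alone 0.25 (0.535). A further Adamts5 probe set was called at 0.83 (0.0269 over all probe sets). Adamts8, the neighbour of Adamts15, differed by 0.28 and was not called (limma adjusted p = 0.164).

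Of the remaining ADAMTS genes, Adamts12 was called higher and Adamts18 lower. Adamts12, which can cut the cartilage and tendon protein COMP, read 8.17, 8.73 and 9.07 in mutant posterior palate and 7.58, 7.94 and 8.27 in control posterior palate. Only the lowest mutant, array 2, lay within the control range. The difference was 0.73 ± 0.20 (limma adjusted p = 0.0212, at most 0.0578 with 1 array left out). A far dimmer Adamts12 probe set, with a mean of 2.86, gave 0.05 and was not called (0.745 over all probe sets). Adamts18, mutated in inherited human eye disease, read 7.05, 7.14 and 7.51 in mutants and 7.25, 7.76 and 8.17 in controls. Of the 6 mutant arrays 4 were below every control. The difference was -0.55 ± 0.17 (limma adjusted p = 0.0414, at most 0.103 with 1 array left out). Dimmer Adamts18 probe sets gave -0.37 and -0.17 and were not called (0.289 and 0.616 over all probe sets). Adamtsl4, an ADAMTS-like protein without proteinase domain that binds fibrillin microfibrils, read 4.93, 5.03 and 5.15 in mutants and 4.51, 4.67 and 4.90 in controls. The groups did not overlap and the difference was 0.36 ± 0.09 (limma adjusted p = 0.0118), at a reading below the array median.

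In the ADAM family 4 of 28 genes (14.3%) were called, all higher, a share near the 13.5% called over all genes. Adam19, a sheddase of neuregulin needed for mouse heart valve formation, read 8.44, 8.74 and 9.35 in mutant posterior palate and 7.64, 8.08 and 8.37 in control posterior palate. The groups did not overlap. The difference was 0.80 ± 0.19 (limma adjusted p = 0.0119), and a weaker probe set gave 1.00 (0.00117 over all probe sets). Adam22 and Adam23 lack an active site and serve as neuronal receptors for LGI proteins. Adam22 read 7.92, 8.12 and 8.37 in mutants and 7.39, 7.68 and 7.95 in controls, and Adam23 read 5.79, 6.23 and 7.17 in mutants and 5.60, 5.74 and 5.88 in controls. Adam22 was above the array median on all 18 arrays, but Adam23 on only 10 of them. Each pair of groups overlapped at its edge, and mutant array 1 stood above the other mutants for Adam23. Their differences were 0.44 ± 0.13 and 0.54 ± 0.16 (limma adjusted p = 0.0317 and 0.0378, at most 0.0832 and 0.0757 with 1 array left out). Their other probe sets were not called, at 0.19 for Adam22 (limma adjusted p = 0.331 over all probe sets) and 0.65 and 0.15 for Adam23 (0.115 and 0.362). Adam15 differed by 0.25 ± 0.08 (limma adjusted p = 0.04997), the weakest of the calls. With all probe sets tested, this probe set was not called (limma adjusted p = 0.0527). The other Adam15 probe sets gave 0.19, 0.23 and 0.45 (0.113, 0.202 and 0.0477), so only the last, the dimmest, was called.

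Adam10 and Adam17, the sheddases of Notch, TNF and many EGF family ligands, were not called on their brightest probe sets. Adam10 read 10.74, 11.16 and 11.35 in mutant posterior and 11.14, 11.29 and 11.46 in control posterior palate (difference -0.21 ± 0.10, limma adjusted p = 0.192), and mutant arrays 1 to 3 were below every control. Its dimmer probe sets gave -0.03, 0.43 and 0.13 and were not called (limma adjusted p = 0.948, 0.117 and 0.495 over all probe sets). Adam17 read 8.80, 9.32 and 9.59 in mutants and 9.02, 9.29 and 9.36 in controls (0.04 ± 0.11, limma adjusted p = 0.843). Its probe sets disagreed: the other 2 were both called, at 0.48 and 0.46 (limma adjusted p = 0.00149 and 0.0412 over all probe sets). Adam28, known from lymphocytes, differed by -0.73 ± 0.28 without passing the test (limma adjusted p = 0.0985), and its values overlapped. The 45 members not described one by one had differences between -0.29 and 0.50, none called by limma on the brightest probe set, and 9 of them had an unadjusted p under 0.05. Of the 19 other probe sets of 15 of these members, 5 were called between genotypes when all probe sets were tested, 3 higher and 2 lower. The share called over all probe sets was not counted, and by brightest probe set 13.5% of all genes were called. These 5 probe sets were picked out by their calls. They belonged to Adamtsl1 (0.87, limma adjusted p = 0.00114), Adamts9 (0.50, 0.0235), Adamtsl5 (0.35, 0.0220), Adamts10 (-0.41, 0.0234) and Adamts16 (-0.76, 0.0120), which are named after their values were seen. Between regions the brightest probe sets of these 45 members differed by -0.33 to 0.57, again with none called and 9 at an unadjusted p under 0.05.

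**Figure D4:**
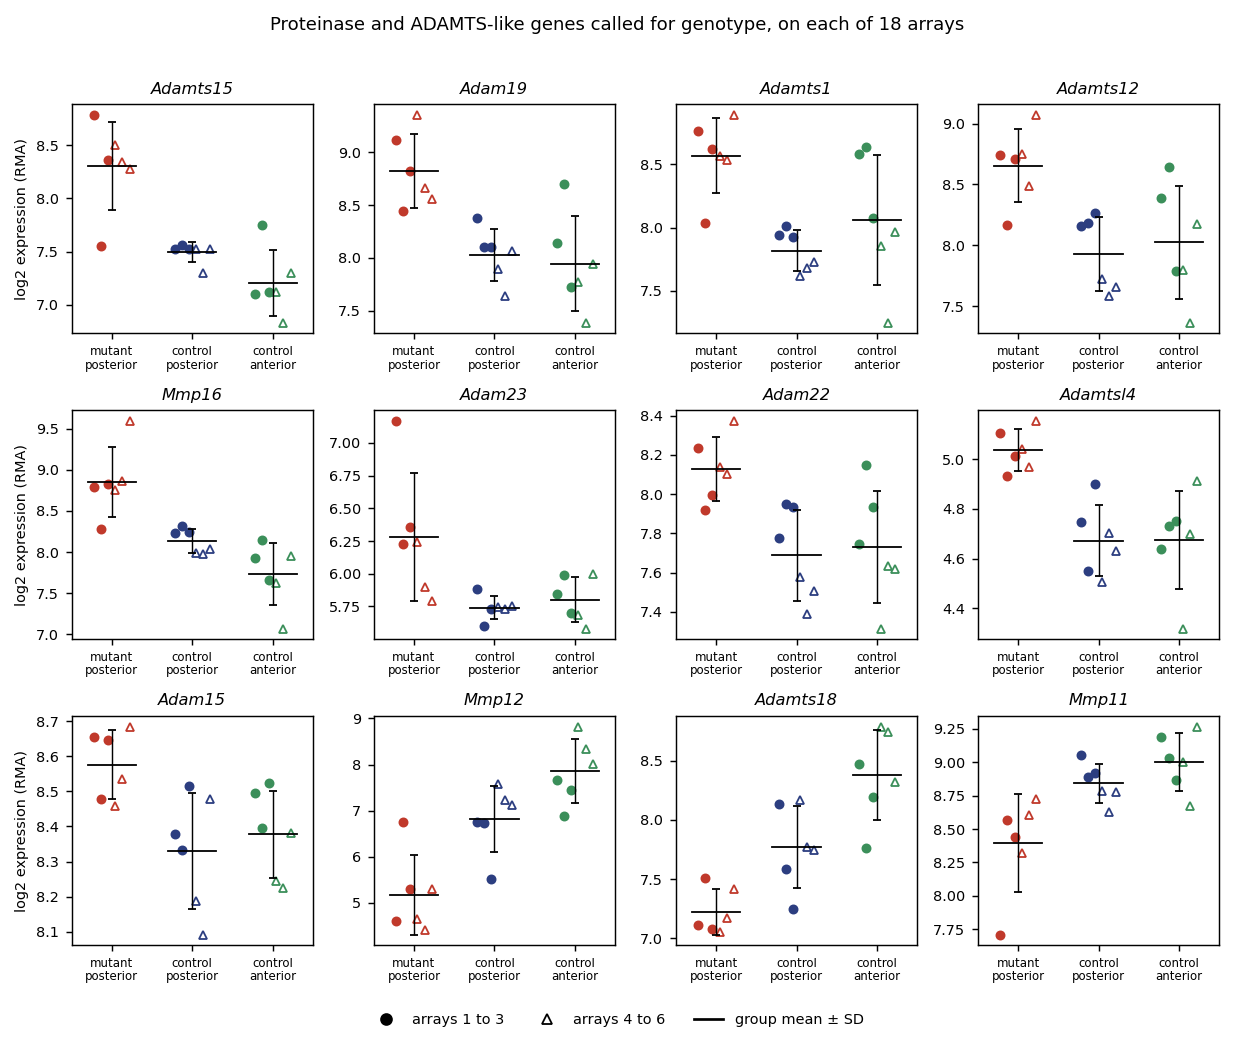
Log2 expression of the 12 proteinase and ADAMTS-like genes called between mutant and control posterior palate, on each of the 18 arrays, with mutant posterior left of control posterior and control anterior; circles are arrays 1 to 3, triangles arrays 4 to 6, lines the group mean ± SD. The first 9 panels are higher in mutants and the last 3 (Mmp12, Adamts18 and Mmp11) lower; control posterior arrays 4 to 6 lie below control posterior arrays 1 to 3 for Adamts1, Adamts12, Adam22, Mmp16, Adam19 and Mmp11, and above them for Mmp12.

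The plot by array set shows the same 13 genes under each choice of arrays. Timp3 gave 0.68 with mutant arrays 1 to 3 and 0.80 with mutant arrays 4 to 6, and Adamts15 gave 0.74 and 0.88. Both were called each time. Mmp12 gave -1.27 with mutant arrays 1 to 3 (limma adjusted p = 0.0717) and -2.03 with mutant arrays 4 to 6 (0.00450). For Mmp12 the choice of controls mattered as much, with -1.16 against control arrays 1 to 3 (0.329) and -2.14 against control arrays 4 to 6 (0.0205).

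**Figure D5:**
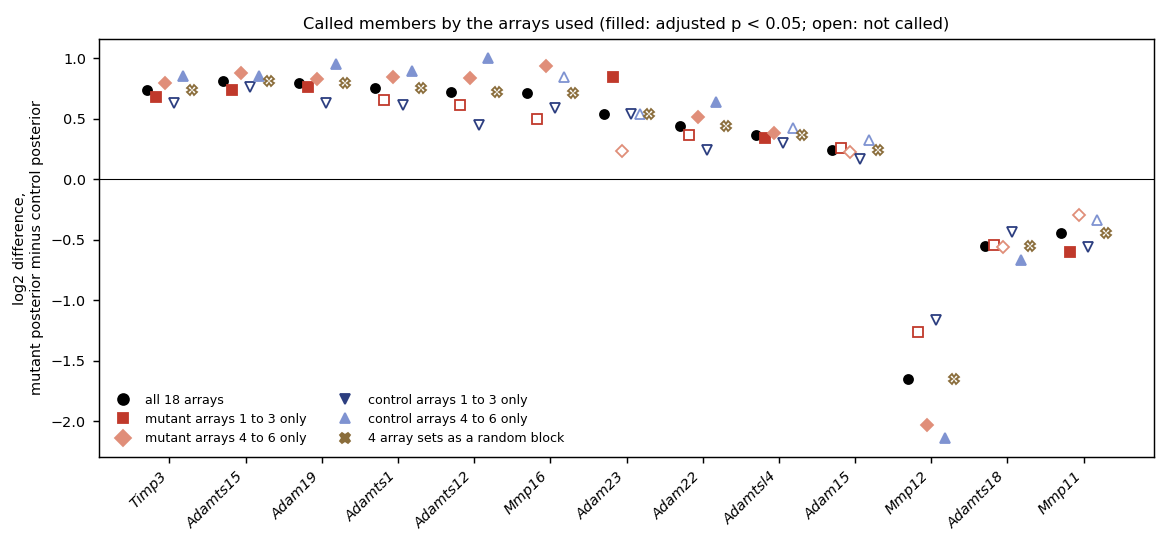
Log2 difference, mutant posterior minus control posterior, of the 13 called members with all 18 arrays and with subsets of arrays; filled symbols have an adjusted p under 0.05 and open ones do not. All 13 genes keep their sign, while none is called with control arrays 1 to 3 alone or with the 4 array sets as a random block.

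Genes outside the families that act with them were counted as well. Of 14 activators, receptors and other inhibitors, 4 were higher in mutants and none lower, against 13.5% of all genes in either direction. These were Lrp1, the receptor that clears many proteinases from the cell surface (0.64, limma adjusted p = 0.00560), A2m, the broad proteinase trap alpha-2-macroglobulin (0.65, 0.0165), Bsg, an inducer of MMPs (0.46, 0.0403), and Rhbdf1, which helps Adam17 reach the surface (0.28, 0.0292). This count was 2 to 4 with 1 array left out (2 without mutant array 2 or 3 or control posterior array 4, 5 or 6), 2 with median centring, 1 with the 4 array sets as a random block, 1 with control arrays 1 to 3 alone and 2 with control arrays 4 to 6 alone. Of 5 astacin proteinases and enhancers that process procollagen, such as Bmp1, none was called by limma, and 2, Tll2 and Pcolce2, named after their values were seen, had an unadjusted p under 0.05. Of 19 substrates, 8 were higher (42.1%, against 7.73% of all genes called higher) and none lower. The number called was 4 to 11 with 1 array left out (4 without control posterior array 5 and 5 without control posterior array 4), 2 with the random block, 1 with control arrays 1 to 3 alone and 5 with control arrays 4 to 6 alone. The largest were Comp (1.80 ± 0.50, limma adjusted p = 0.0238), the microfibril protein Fbn2 (0.78 ± 0.16, 0.00425), the basement membrane collagen Col4a2 (0.61 ± 0.16, 0.0179) and fibronectin, Fn1 (0.57 ± 0.15, 0.0205). Vcan, which encodes versican, the substrate of Adamts1, Adamts5 and Adamts15, was singled out after its values were seen and was higher by 0.47 ± 0.12 (limma adjusted p = 0.0175).

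Some markers of other cell types were called between the genotypes too, beside 13.5% of all genes called in either direction. Between mutant and control posterior palate, 5 of 7 stratified epithelium markers were higher, with mean levels of 8.41 to 10.78 on mutant and 7.24 to 8.09 on control posterior arrays. Of 7 tendon markers 4 were higher, with levels of 8.61 to 9.32 and 8.27 to 8.61. Of 6 bone markers 2 were higher (9.85 to 11.62 and 9.28 to 10.0004), of 8 cartilage markers 2 (6.52 to 9.66 and 6.02 to 6.82), of 7 skeletal muscle markers 1 (9.66 to 12.36 and 9.66 to 10.86), and of 6 mast cell markers 1 (6.63 to 9.31 and 6.48 to 6.84). The skeletal muscle and mast cell shares, 14.3% and 16.7%, were near that of all genes. None of 7 osteoclast, 5 endothelial, 6 epithelial or 8 palatal mesenchyme markers was called. The part of these cell types in the differences of the members was not tested.

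Between regions of the control palate, posterior against anterior, 2 of 70 members (2.86%) were called, both higher in posterior palate, against 3.82% of all genes (1.7% higher and 2.12% lower). No member's groups were free of overlap, against 6.32% of all genes (2.65% higher and 3.67% lower). A positive difference was found for 41 of 70 members (58.6%, against 45.9% of all genes). Adamtsl2, a secreted protein mutated in human geleophysic dysplasia that binds fibrillin and latent TGF-beta binding protein, read 6.14, 6.32 and 6.55 in control posterior and 5.46, 5.86 and 6.17 in control anterior palate. Anterior array 6 alone reached into the posterior range. The difference was 0.47 ± 0.11 (limma adjusted p = 0.0174). Timp4, a TIMP best known from heart muscle, read 5.80, 6.09 and 6.24 in posterior and 5.56, 5.79 and 5.92 in anterior palate, with posterior array 5 inside the anterior range. The difference was 0.31 ± 0.08 (limma adjusted p = 0.0317, lost in 8 of the 18 fits with 1 array left out, at most 0.0835). Its other probe set was not called, and neither gene was called with control arrays 1 to 3 alone (0.102 and 0.294) or 4 to 6 alone (0.449 and 0.596).

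The largest regional differences were not called. Mmp13 read 7.46, 8.94 and 9.71 in control posterior palate against 9.14, 10.10 and 10.79 in control anterior palate, a difference of -1.17 ± 0.55 (limma adjusted p = 0.248). Mmp12 read 5.51, 6.94 and 7.57 against 6.87, 7.84 and 8.82, a difference of -1.04 ± 0.40 (0.155). The 7 macrophage markers had positive differences in posterior palate, and 2 of them were called, C1qa (0.60) and C1qb (0.62), both without overlap. Their part in the regional difference of Mmp12 was not tested. For Mmp13 and Mmp12, the ranges overlapped when all arrays were pooled but not within array sets, where 3 arrays stood against 3. The share of all genes apart in this way was not counted. With control arrays 1 to 3 or 4 to 6 alone, no member was called between regions. Within arrays 1 to 3 the difference of Mmp13 was -1.20 and within arrays 4 to 6 it was -1.14, and for Mmp12 the values were -0.998 and -1.08. A fit of the 12 control arrays with the array set as a fixed block, chosen after seeing the data, gave limma adjusted p = 0.00277 for Mmp13 and 0.00968 for Mmp12. That fit called 16 of 70 members, 12 higher and 4 lower in posterior palate, beside 3118 of all 18193 genes. Of the next largest regional differences none was called in the fit used throughout: Adam28 (0.65 ± 0.28, limma adjusted p = 0.213), Adamts18 (-0.61 ± 0.17, 0.0587) and Mmp9 (-0.70 ± 0.52, 0.488). Among 32 alternatives for each gene, Adamts18 was called in 8, Adam28 in 3 and Mmp9 in none. With 1 array left out, the limma adjusted p of Adamts18 was as low as 0.0166.

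The medians of Mmp12 were in the order mutant posterior 4.97, control posterior 6.94 and control anterior 7.84, and those of Adamts18 were 7.14, 7.76 and 8.40 in the same groups. Both comparisons use the same control posterior arrays. Skeletal muscle markers differed most between the regions, with 7 of 7 higher and mean levels of 9.66 to 10.86 in control posterior and 5.502 to 8.03 in control anterior palate. Their part in the members' differences was not tested. Outside the families, Papln, a proteoglycan-like inhibitor of ADAMTS2, was lower in posterior palate (-0.53 ± 0.13, limma adjusted p = 0.0309), as was Notch1, a substrate of Adam10 (-0.46 ± 0.08, 0.00368).

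Of the 18 Mmp members 9 lie in 1 cluster on chromosome 9, where they are 9 of 10 consecutive protein-coding genes in the order Mmp13, Mmp12, Mmp1b, Mmp3, Mmp1a, Mmp10, Mmp8, Mmp20 and Mmp7, with Mmp27 as the other. Mmp13 read above the array median on all 18 arrays and Mmp12 on 12, Mmp7 on 6 and the other 6 on none. Upstream sequences from RefSeq (GRCm38.p6) were found for 41 of the 70 members. The AP-1 transcription factors, which activate many MMP promoters in culture, recognise TGAGTCA or TGACTCA. The wider letters TGANTCA, with any base at N, read the same on both strands and were searched in the 250 bases before each start. They occurred in 6.75% of all 32851 windows and in at least 1 window of 7.82% of all 27025 genes. By gene, 8 of the 9 cluster genes held them, as did 2 of the 32 other members, Adam25 and Adam19. The matches of Mmp20, in the cluster, and of Adam25 read TGAATCA and so were not of the AP-1 form. The 150 bases upstream of 5 starts, all on the plus strand, are shown for Mmp13 and Mmp12, the neighbours described above, for Mmp3 and Mmp10 of the same cluster, which read below the array median on all 18 arrays, and for the called Adam19 (chromosome 11), with capitals marking the match. They cover chr9:7272364-7272513, chr9:7347224-7347373, chr9:7445672-7445821, chr9:7502192-7502341 and chr11:46055834-46055983.
Mmp13: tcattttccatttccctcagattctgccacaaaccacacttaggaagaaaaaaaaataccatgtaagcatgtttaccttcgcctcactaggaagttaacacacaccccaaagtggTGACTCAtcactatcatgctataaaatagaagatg
Mmp12: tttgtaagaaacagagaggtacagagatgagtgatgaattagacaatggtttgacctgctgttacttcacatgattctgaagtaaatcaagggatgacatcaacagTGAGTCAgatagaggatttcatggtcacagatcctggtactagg
Mmp3: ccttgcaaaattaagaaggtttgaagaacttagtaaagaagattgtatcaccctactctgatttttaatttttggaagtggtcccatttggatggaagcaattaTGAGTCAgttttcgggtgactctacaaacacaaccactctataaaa
Mmp10: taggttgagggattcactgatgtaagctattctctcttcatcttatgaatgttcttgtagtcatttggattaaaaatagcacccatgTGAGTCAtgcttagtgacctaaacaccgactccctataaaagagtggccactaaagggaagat
Adam19: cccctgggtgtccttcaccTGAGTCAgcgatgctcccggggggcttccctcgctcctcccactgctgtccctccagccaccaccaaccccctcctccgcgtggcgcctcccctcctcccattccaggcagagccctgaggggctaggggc
The match lay 35 bases before the start in Mmp13, 44 in Mmp12, 46 in Mmp3, 63 in Mmp10 and 131 in Adam19. The other start of Mmp12 in the table had none, and of the 3 starts of Adam19 only this one had it. Mmp3 and Mmp10 differed by 0.14 and 0.07 between mutant and control posterior palate (limma adjusted p = 0.366 and 0.667), at readings below the array median. The motif was present in windows of genes with and without a called difference.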

How the data were processed

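Palatal RNA was measured on 18 Affymetrix expression arrays. The authors deposited log2 values per probe set, made with RMA per the submitters' processing notes. The deposited log2 values lay between 2.21 and 14.96, and other upstream settings are not given in the sources used here. No scanner files were used, so detection calls were not available, and the number of arrays limits the precision.

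Probe sets were named from the platform's annotation. Of 45101 probe sets, 34945 had 1 gene symbol, 932 had several and were not used for a gene, 9211 were unlisted, and 64 were controls. The brightest probe set stood for each of 18193 genes, of which 18032 matched a RefSeq gene. A single model of 3 groups with 15 residual degrees of freedom was fitted with limma 3.58.1 (lmFit and eBayes, statmod 1.5.0, R 4.3.3), with Benjamini-Hochberg adjustment over all genes. The fit was also run on simulated data with independent noise and no array sets. That run cannot check how array sets affect the calls. Mutant posterior was set against control posterior, and control posterior against control anterior, so both comparisons share the control posterior arrays. Standard errors of differences are those of the moderated fit.

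Sequences came from RefSeq (GRCm38.p6). Members and gene lists were chosen with earlier results of these data known. The 25 members described one by one were the TIMPs, Mmp2, Mmp9, Mmp13, Mmp14, Adam10, Adam17, the called members, the 5 brightest and the 5 with the largest difference in each comparison. From other lists up to 4 called genes were named. Lists outside the family rule held 119 entries, some genes standing in several lists, and 7 entries were not measured.

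Equal array numbers in the titles were checked for pairing by the correlation of deviations from the group means. These were 0.111 to 0.430 between control posterior and control anterior arrays, over 0.1 in 6 of 6 pairs. The array of the same number was the best match in only 3 of 6. Pairing was therefore not shown, and the fit used throughout took no arrays as pairs. Both control groups hold the array sets described above, and the part of these sets in the correlations was not tested. The correlations were -0.222 to 0.157 between mutant and control posterior arrays, over 0.1 in 2 of 6. The same number was the best match there in 1 of 6, so pairing was not shown there either. Alternatives covered probe set choice, scaling, a filter on genes with a mean under 5, array weights, variance model, a replicate block, array sets, single arrays left out and the threshold.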

Additional observations from a re-analysis of the deposited data

Results flagged for a closer look

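Of 75 groups of 6 values, 3 held an array whose gap to its nearest neighbour, as a share of the group's range, was above Dixon's 95% limit, which chance passes in about 1 group in 20. Mmp9 read 11.295 on mutant array 1, with the next mutant array at 7.8924. Mmp12 read 6.7586 on mutant array 2, with the next at 5.2955. Adamts15 read 7.3021 on control posterior array 5, below the next control posterior array at 7.5191.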

How the results depend on the processing

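All 13 genotype calls kept their direction under every alternative run, and 120 of 428 single checks lost the call. Both region calls also kept their direction, and 15 of 64 checks lost the call. For the described members that were not called, 11 of 396 genotype checks and 20 of 735 region checks gained a call. Where a cause is not plain from the smaller number of arrays or the stricter threshold, the cause was not tested. Of all genes, 2449 were called between genotypes, against 1572 with the 2 compared groups alone, 588 with 4 array sets as a random block (consensus correlation 0.262), 4986 with mutant arrays 1 to 3 only, 135 with control arrays 1 to 3 only, 1008 with control arrays 4 to 6 only, 905 at an adjusted p under 0.01, and 1512 to 2735 with 1 array left out (1512 and 1592 without control posterior array 5 or 4). Members called numbered 13, against 0 with the 4 sets as a block, 0 with control arrays 1 to 3 (limma), 8 with control arrays 4 to 6, 2 at 0.01, and 7 to 16 with 1 array left out (7 without control posterior array 4 or 5). Between regions 695 genes were called, against 3356 with array weights, 2151 with the 2 groups alone, 1322 with the 4 sets, 3118 with the fixed block added after seeing the data, 82 and 16 with control arrays 1 to 3 and 4 to 6, 251 at 0.01, and 389 to 1213 with 1 array left out (389 without control posterior array 6, 1213 without mutant array 1). The 2 members called became 1 with the mean of probe sets, 4 with median centring, 16 with array weights, 7 with the 2 groups alone, 4 with the 4 sets, 16 with the added block, 0 with either control set, 0 at 0.01, and 1 to 4 with 1 array left out (4 without mutant array 1). The replicate block, which takes equal numbers as pairs, kept both region calls (limma adjusted p = 0.0182 and 0.0251), and between genotypes kept 12 of 13, losing Mmp11 (0.0710). Signs turned only for differences that were not called. Between genotypes these were Adam10 (0.080) and Timp4 (0.090) with the mean of probe sets, Adam17 (-0.017) and Adamtsl2 (-0.021) with median centring, Adamtsl2 (-0.030) with quantile normalization, Adam17 (-0.18) and Timp2 (-0.12) with mutant arrays 1 to 3, and Adam10 (0.016) and Timp4 (0.0037) with mutant arrays 4 to 6. Others were Adam17 (-0.026), Adamtsl2 (-0.068), Mmp13 (0.17) and Timp2 (-0.0035) with control arrays 1 to 3 and Timp4 (0.020) with control arrays 4 to 6. Between regions they were Adam10 (0.040), Adam15 (0.028), Adam22 (0.079) and Timp2 (0.0081) with the mean of probe sets, Adam15 (0.039), Adam22 (0.044) and Timp3 (0.026) with quantile normalization, Adamts5 (-0.081) and Adamtsl4 (0.025) with control arrays 1 to 3, and Timp3 (0.057) with control arrays 4 to 6. With 1 array left out, the region difference ranged from -0.084 to 0.0011 for Adam15, -0.027 to 0.23 for Adam19, -0.13 to 0.039 for Adam22, -0.23 to 0.026 for Adamts12, -0.039 to 0.18 for Adamts5, -0.073 to 0.045 for Adamtsl4, -0.27 to 0.033 for Mmp2 and -0.088 to 0.064 for Timp3. The genotype difference ranged from -0.021 to 0.14 for Adam17, -0.00043 to 0.082 for Adamtsl2 and -0.068 to 0.019 for Timp4.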
